A study of Mus musculus with 22 samples.

Results

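The genes described here are 8 members of the chloride transport machinery of the cell, read in bulk RNA sequencing libraries of mouse forebrain tissue in which the cohesin subunit Smc3 was targeted in neurons by an inducible Cre. They were chosen by name, as Clcn2, Clcn3, Clcn4, Clcn5, Clcn6, Clcn7, Slc12a2 and Slc12a5, and all 8 were found among the 20565 genes of each of the authors' tables, which hold whole-number read counts. The choice was made with the cKO and WT results of these same libraries known, so the cKO against WT values of these genes are given as a description. Comparisons that the choice did not use are those between the sexes within a genotype, between genes and with cell type markers.

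Each of the 22 libraries has a number of its own and is taken here as a separate mouse, which the labels do not state, so that p-values measure the spread between these libraries. The 4 groups are male cKO (n = 6), male WT (n = 5), female cKO (n = 6) and female WT (n = 5). Animals of every group carried floxed Smc3 and received tamoxifen by oral gavage. The cKO mice also carried Camk2a-cre/ERT2, a Cre recombinase that tamoxifen activates and that the Camk2a promoter drives in forebrain excitatory neurons, and the WT mice lacked it. The mice were labelled as 8 weeks old and were sampled 6 weeks after tamoxifen. The labels do not say whether that age is the one at tamoxifen or at sampling. Sample titles of all 4 groups, cKO as well as WT, also carry the words control and week 6. Because the tissue was taken whole, cells without the Cre contribute to every value.

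Chloride channels and transporters set the chloride gradient on which inhibition through GABA-A and glycine receptors depends, and they acidify and fill endosomes and lysosomes. Among ClC proteins, ClC-2, encoded by Clcn2, is a channel of the plasma membrane of neurons and glia, while those encoded by Clcn3 to Clcn7 are exchangers of chloride for protons in endosomes, lysosomes and related vesicles. In neurons KCC2, encoded by Slc12a5, carries chloride out of the cell together with potassium, and NKCC1, encoded by Slc12a2, carries it in with sodium and potassium.

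Totals were 12771354 to 16896239 counts per library, which limits the precision for the rarest members. In the libraries labelled cKO the count of Smc3 over the whole gene was higher, with 142.1 ± 16.07 CPM in male cKO and 82.52 ± 10.08 CPM in male WT, and with 129.8 ± 10.11 CPM in female cKO and 74.39 ± 6.373 CPM in female WT (mean ± SD). A count over the whole gene does not test whether the floxed part was lost, and each direction below is that of the library labels. CPM here are counts relative to the library total, on 1 scale over all 22 libraries after edgeR's TMM scaling. Sample titles name the hypothalamus and the tissue field names the prefrontal cortex. The summed level of 8 cortex markers was 332.4 to 745.9 CPM per library, and that of 5 measured hypothalamus markers 2.201 to 16.87 CPM. For 8 striatum markers the sum was 133.4 to 728.2 CPM per library.

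The promoter windows of the member with the largest cKO to WT difference and of the most abundant member are shown for their base composition. They are the 250 bases before the annotated start in RefSeq, build GRCm38.p6, from chr16:20716637-20716886 on the minus strand for Clcn2 and from chr2:164960596-164960845 on the plus strand for Slc12a5. Capitals mark a GC box, the motif GGGCGG on either strand.
Clcn2: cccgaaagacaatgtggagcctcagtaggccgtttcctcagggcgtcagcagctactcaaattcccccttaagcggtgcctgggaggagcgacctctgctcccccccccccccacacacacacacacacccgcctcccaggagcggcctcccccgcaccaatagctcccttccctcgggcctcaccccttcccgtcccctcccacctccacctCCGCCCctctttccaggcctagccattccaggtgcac
Slc12a5: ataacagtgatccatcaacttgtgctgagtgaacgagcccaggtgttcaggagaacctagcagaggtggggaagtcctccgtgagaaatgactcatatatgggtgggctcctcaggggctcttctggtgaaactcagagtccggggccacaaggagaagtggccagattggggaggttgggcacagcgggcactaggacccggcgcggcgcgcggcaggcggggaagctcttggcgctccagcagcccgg

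The Clcn2 window was 66% G and C with 11 CpG dinucleotides, and the Slc12a5 window 61.2% with 13. Over 32851 promoter windows of this length the medians were 52.4% and 6. A GC box stands in the Clcn2 window and none in the printed Slc12a5 window, and 32.7% of all windows hold it. A second window is listed for Slc12a5, before another start of the gene, and that one is 67.2% G and C, has 16 CpG dinucleotides and holds 1 GC box. A core of the motif of CTCF, the DNA-binding protein at which cohesin halts, was searched as CC, any 3 bases, AG, any 2 bases and GGC, and was found in 7.17% of all windows on either strand. Neither printed window holds them, nor does any of the other 10 windows listed for members. No window was listed for Slc12a2.

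The question put by the design is how transcript levels differ between mice with and without the Cre in each sex. Of the 8 members, Clcn2 was lower in cKO than in WT mice of both sexes, and no other member passed the threshold in either sex. The threshold was an adjusted p under 0.05 in edgeR's quasi-likelihood test, with Benjamini-Hochberg adjustment over all genes tested. In males 1 of 8 members was called, where 0.584% of all 16098 tested genes were called and 0.503% were called lower. In females it was also 1 of 8, where 3.37% of 16123 tested genes were called and 2.75% were called lower. Since the members were picked with these contrasts known, nothing is read from these shares. The median log2 fold change of the members was -0.07 in males against 0.01 over all genes, and 0.01 in females against 0.01 over all genes.

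Clcn2 encodes the hyperpolarization-activated chloride channel ClC-2, and mice without it develop vacuoles in white matter. Male cKO libraries had a lowest value of 45.21, a median of 53.18 and a highest of 61.6 CPM of Clcn2, against 88.52, 85.48, 87.81, 91.81 and 84.84 CPM in male WT libraries. Every male cKO library was thus below every male WT library. Female cKO libraries ran from 43.23 through a median of 51.91 to 54.32 CPM, against 80.84, 78.39, 78.27, 78.46 and 75.73 CPM in female WT libraries. The female groups did not overlap either, and all 12 cKO libraries lay below all 10 WT libraries when the sexes are put side by side. How many of all tested genes separate in this way was not counted, here or where non-overlap between groups is given below. In raw reads the gene was counted 667 to 913 times in male cKO and 1081 to 1329 times in male WT libraries. Females gave 626 to 862 reads in cKO and 1067 to 1227 reads in WT libraries.

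**Figure D1:**
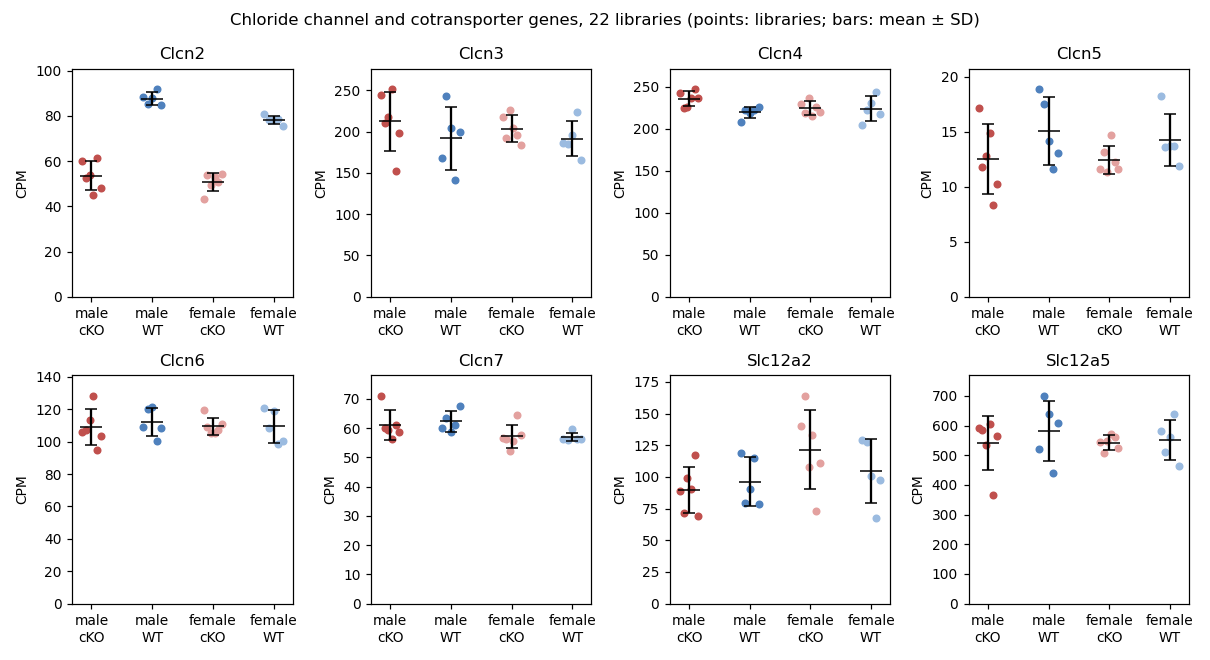
Each panel plots 1 gene, with CPM on a linear axis from 0 and the groups male cKO, male WT, female cKO and female WT from left to right. Points are libraries, and the horizontal mark and bar are the mean and SD. In the Clcn2 panel the cKO libraries lie between 43.23 and 61.6 CPM and the WT libraries between 75.73 and 91.81 CPM. In the other 7 panels cKO and WT libraries of the same sex overlap. How many of all tested genes separate as Clcn2 does was not counted.

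Expressed as a fold change, Clcn2 fell by 0.71 on the log2 scale in males (SE 0.08, edgeR adjusted p = 0.00328) and by 0.62 in females (SE 0.06, edgeR adjusted p = 0.000206). These are 1.63-fold and 1.54-fold lower levels in cKO than in WT mice. The authors' deposited table gives -0.705 in males and -0.617 in females. Libraries of cKO mice spread more around their mean than those of WT mice, with a coefficient of variation of 12.1% against 3.16% in males and 8.22% against 2.31% in females. The difference in that spread was not tested.

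A lower count in bulk tissue may reflect fewer cells of a type or less RNA per cell, and these cannot be told apart here. Summed over 8 markers of excitatory neurons, the cells in which the Cre is driven, levels were 3879 to 6065 CPM in male cKO and 3492 to 6166 CPM in male WT libraries. For the same sum, female cKO libraries gave 3745 to 5569 CPM and female WT libraries 4175 to 7306 CPM. None of these 8 markers was called in either sex by edgeR, with 1 at an unadjusted p under 0.05 in males and 2 in females, and DESeq2 called 0 in males and 2 in females. Those 2 went opposite ways. Slc17a6 averaged 29.13 CPM in female cKO and 17.24 CPM in female WT libraries, and Neurod6 averaged 62.22 and 95.52 CPM. Of 8 inhibitory neuron markers, Vip and Sst fell in females, and in males 0 were called by edgeR or DESeq2 and 0 had an unadjusted p under 0.05. Of 8 cortex markers, 7 were lower in males, where DESeq2 alone called Lamp5, and all 8 were lower in females, where Lamp5 and Emx1 passed the threshold. Other markers passed the threshold of only 1 tool or in only 1 sex. The astrocyte gene Gfap was at 0.97 in males and 0.80 in females, called by DESeq2 in both and by edgeR in neither (edgeR adjusted p = 0.0542 and 0.0669). The oligodendrocyte precursor gene Gpr17 was at 0.25 in males and 0.39 in females, called in females by both tools (edgeR adjusted p = 0.0445). The leptomeningeal genes Col1a1, at 0.80 in males, and Slc6a13, at -0.75 in females, were each called there by DESeq2 alone. The part of these cell types in the Clcn2 value was not tested. With a score of 9 oligodendrocyte markers in the fit, Clcn2 stood at -0.72 in males and at -0.62 in females. That fit held no score of any other cell type, and its values are a description.

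**Figure D2:**
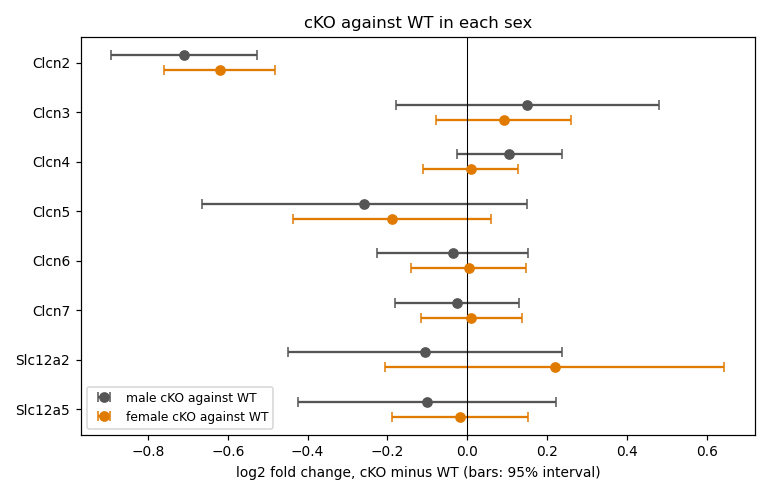
Log2 fold change, cKO minus WT, for the 8 genes in males (grey) and females (orange), with bars for the 95% interval. The Clcn2 intervals run from -0.89 to -0.53 in males and from -0.76 to -0.48 in females, and the intervals of all other members include 0.

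Next come the exchangers of endosomes. ClC-3 and ClC-4 share much of their sequence and work in endosomal and synaptic vesicle membranes. For Clcn3 the male cKO libraries had a lowest value of 152, a median of 213.9 and a highest of 251.2 CPM, against 168.6, 243.5, 204.9, 141.9 and 199.7 CPM in male WT libraries. Its female cKO libraries had 183.4, 200.1 and 226.5 CPM as lowest, median and highest, against 186.6, 185.2, 195.9, 223.7 and 165.6 CPM in female WT libraries. The groups overlapped almost over their whole range in both sexes. The log2 fold change of Clcn3 was 0.15 in males (interval -0.18 to 0.48) and 0.09 in females (interval -0.08 to 0.26). Intervals here are 95% intervals from the standard error and the t distribution.

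Clcn4 varied little between libraries, with a coefficient of variation of 3.13% to 6.57% within groups. It ran from 224.4 to 246.8 CPM with a median of 236.8 in male cKO libraries, against 207.9, 221.7, 218.5, 222.7 and 225.6 CPM in male WT libraries. Male cKO values sat mostly above male WT values, and the lowest male cKO libraries overlapped the highest male WT library. The male log2 fold change was 0.11 (interval -0.03 to 0.24, edgeR adjusted p = 0.669). Female cKO libraries averaged 224.3 ± 8.263 CPM and female WT libraries 223.6 ± 14.69 CPM, with a log2 fold change of 0.01 (interval -0.11 to 0.13).

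ClC-5, best known from endosomes of the kidney, was the rarest member. Clcn5 had 8.312 to 17.18 CPM in male cKO and 11.59 to 18.85 CPM in male WT libraries, and 11.31 to 14.69 CPM in female cKO and 11.86 to 18.23 CPM in female WT libraries. Its log2 fold changes were -0.26 in males (interval -0.67 to 0.15) and -0.19 in females (interval -0.44 to 0.06). Both values were negative, the groups overlapped in both sexes, and neither value passed the threshold.

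ClC-6 and ClC-7 work in late endosomes and lysosomes, and loss of ClC-7 in mice gives lysosomal storage and dense bone. Clcn6 averaged 108.9 ± 11.23 CPM in male cKO and 112 ± 8.78 CPM in male WT libraries, and 109.5 ± 5.328 CPM in female cKO and 109.6 ± 10.21 CPM in female WT libraries (SD). Its log2 fold changes were -0.04 in males (interval -0.23 to 0.15) and 0.004 in females (interval -0.14 to 0.15). Clcn7 averaged 61.03 ± 5.073 CPM in male cKO and 62.24 ± 3.509 CPM in male WT libraries, and 57.15 ± 3.999 CPM in female cKO and 56.93 ± 1.491 CPM in female WT libraries (SD). Its intervals ran from -0.18 to 0.13 in males and from -0.12 to 0.14 in females. For Clcn6 and Clcn7 the intervals thus leave out a change as large as that of Clcn2 in either sex.

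Turning to the cotransporters, Slc12a5 encodes KCC2, whose rise during development makes GABA inhibitory in mature neurons. Male cKO libraries had 364.6 CPM at the lowest, 575.5 at the median and 606.1 at the highest, against 522.1, 698.8, 637.7, 440.3 and 609.8 CPM in male WT libraries. Male cKO replicate 13 lay far below the rest of its group, and the groups overlapped. Female cKO libraries had 506, 545.8 and 572.4 CPM as lowest, median and highest, against 581.8, 510.3, 561.3, 637.9 and 462.5 CPM in female WT libraries. Every female cKO value fell within the range of the female WT values. The log2 fold change of Slc12a5 was -0.10 in males (interval -0.42 to 0.22) and -0.02 in females (interval -0.19 to 0.15). Without male cKO replicate 13 the male value was -0.01.

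Slc12a2 encodes NKCC1, which is found in glia, in the choroid plexus and in neurons. Male cKO libraries had 68.83 CPM at the lowest, 89.73 at the median and 117.7 at the highest, against 118.6, 79.24, 90.09, 115.1 and 78.7 CPM in male WT libraries. Female cKO libraries had 73.16, 121.8 and 163.7 CPM as lowest, median and highest, against 129.5, 127.9, 100.9, 67.97 and 97.42 CPM in female WT libraries. Libraries of each group were widely spread and the groups overlapped in both sexes. Its log2 fold change was -0.11 in males (SE 0.16, interval -0.45 to 0.24) and 0.22 in females (SE 0.20, interval -0.21 to 0.64). Female cKO replicate 21, the highest for Slc12a2, also had a summed level of 6 choroid plexus markers of 611.1 CPM, where no other library exceeded 50.29 CPM. Of that sum 526.5 CPM came from Ttr. The same library had the highest summed level of 9 oligodendrocyte markers of all 22, 9962 CPM. The part of either in its Slc12a2 value was not tested. Leaving out any 1 library moved the female value of Slc12a2 between 0.09 and 0.32.

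Levels were compared between genes per kilobase of exon, since the members differ in length. By the mean CPM per kb in WT mice the order was Slc12a5, Clcn4, Clcn3, Clcn2, Clcn6, then Slc12a2 and Clcn7, and last Clcn5. Slc12a5 stood at 87.2 ± 14.54 in male cKO, 93.71 ± 16.35 in male WT, 87.35 ± 3.933 in female cKO and 88.72 ± 10.84 in female WT libraries (CPM per kb, SD). Its libraries did not overlap those of Clcn4, whose group means were 46.09 to 49.48 CPM per kb. Clcn3 followed with group means of 29.62 to 32.86 CPM per kb, and its libraries lay below those of Clcn4.

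Clcn2 had 17.12 ± 2.063 CPM per kb in male cKO and 28.04 ± 0.8856 in male WT libraries, and 16.23 ± 1.334 in female cKO and 25.04 ± 0.5783 in female WT libraries. In WT mice it stood above Clcn6, whose libraries ran from 19.02 to 23.38 CPM per kb, without overlap in either sex, and male WT Clcn2 libraries lay within the range of Clcn3. In cKO mice it stood below Clcn6, without overlap in females, where Clcn2 reached at most 17.37 and Clcn6 had at least 20.22 CPM per kb, and with overlap in males. Slc12a2 and Clcn7 overlapped, with group means of 13.72 to 18.63 and 12.99 to 14.2 CPM per kb, and female Slc12a2 libraries also reached into the range of Clcn6. Clcn5 was lowest with group means of 1.482 to 1.793 CPM per kb.

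**Figure D3:**
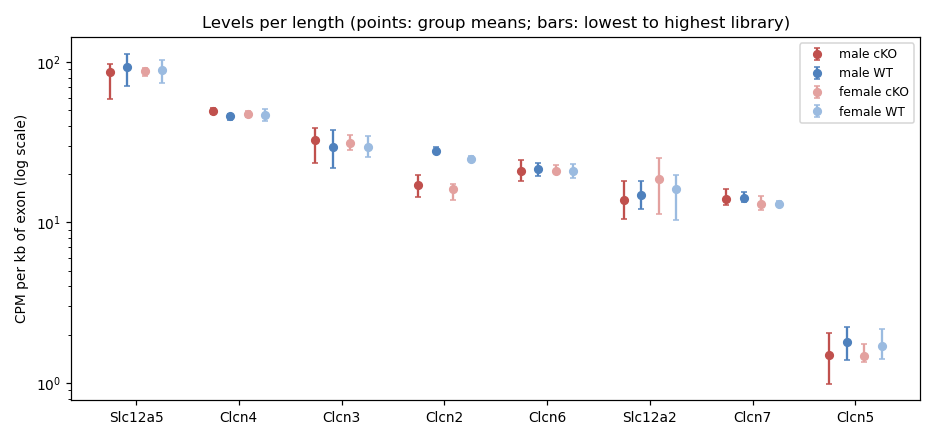
Level per length of each gene, as CPM per kb of exon on a log scale. Points are group means and bars run from the lowest to the highest library, with male cKO, male WT, female cKO and female WT from left to right within each gene. Slc12a5 lies highest at 87.2 to 93.71 CPM per kb and Clcn5 lowest at 1.482 to 1.793, and Clcn2 lies above Clcn6 in WT mice and below it in cKO mice.

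As a share of the summed level per kb of the 8 genes, Clcn2 made up 7.298% ± 1.3 in male cKO and 11.31% ± 1.306 in male WT libraries, and 6.875% ± 0.6615 in female cKO and 10.36% ± 0.504 in female WT libraries (SD). Slc12a5 made up 36.52% to 37.28% in every group. The ratio of Slc12a5 to Slc12a2, each per kb, is often read as a measure of outward over inward chloride transport at the transcript level. It had a median of 7.02 (3.25 to 8.64) in male cKO, 7.43 (4.02 to 9.26) in male WT, 4.74 (3.25 to 8.05) in female cKO and 4.99 (4.19 to 9.86) in female WT libraries. These ranges overlapped throughout. Both genes also varied with oligodendrocyte RNA, as given below, and its part in the ratio was not tested.

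The sexes were compared next, in a single fit of all 22 libraries. Males and females came in separate tables of counts, so sex and table cannot be told apart in these comparisons. The difference between the female and the male change is built from the contrasts known when the members were chosen, so for the members it is a description. The female change minus the male change was 0.09 for Clcn2 on the log2 scale (SE 0.10, interval -0.13 to 0.30) and 0.32 for Slc12a2 (SE 0.27, interval -0.24 to 0.88). Over all 16855 genes tested 0% were called for such a difference by edgeR, 176 had an unadjusted p under 0.05, and DESeq2 called 0.

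Within genotype, a comparison that the choice of members did not use, no member was called between females and males by edgeR or DESeq2, where 0.0415% of genes were called in cKO mice and also 0.0415% in WT mice. Among cKO mice Slc12a2 was 0.44 higher in females on the log2 scale (SE 0.18, edgeR unadjusted p = 0.024, adjusted p = 0.359). All 9 oligodendrocyte markers used were higher in the same comparison, with a median log2 fold change of 0.77 and no call. With the oligodendrocyte score in the fit the Slc12a2 value was 0.13, and the part of oligodendrocyte RNA in it was not tested. Among WT mice Clcn2 was 0.16 lower in females, at -0.16 (SE 0.08, edgeR unadjusted p = 0.0442, adjusted p = 0.512), and the ranges of 75.73 to 80.84 CPM in female WT and 84.84 to 91.81 CPM in male WT libraries did not overlap. At the level of all genes this did not pass the threshold. By p Clcn2 ranked 1458 among 16855 genes, of which 1593 had an unadjusted edgeR p under 0.05.

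Libraries differed widely in oligodendrocyte RNA within each group. The summed level of 9 markers, namely Aspa, Cldn11, Cnp, Ermn, Mag, Mbp, Mobp, Mog and Opalin, ran from 1509 to 8670 CPM in male cKO, 1238 to 7173 in male WT, 3003 to 9962 in female cKO and 2230 to 7386 in female WT libraries. Each member was therefore set against the mean log2 level of these markers after the group means were taken out. The relation was tested by permuting libraries within groups, two-sided, with 100000 permutations and adjustment over the 8 members. Other genes were not put through it, so the share of all genes with such a relation is not known. None of the relations below is read as particular to the members. The sum of 8 striatum markers also varied within groups. It ran from 133.4 to 681.9 CPM in male cKO and from 216.4 to 606.2 CPM in male WT libraries. Female cKO libraries gave 317.8 to 728.2 CPM and female WT libraries 198.7 to 596.4 CPM. The part of striatum tissue in the relations below was not tested.

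Slc12a2 was higher in libraries with more oligodendrocyte RNA, with Pearson r = 0.833 and Spearman rho = 0.846 over 22 libraries (adjusted permutation p = 8e-05 for both, from the smallest p that these permutations can give, 1e-05). Without the 2 libraries farthest from the median score, r was 0.842. It was 0.828 in the 11 males and 0.974 in the 11 females. With the score as a covariate, the female cKO against WT value of Slc12a2 was -0.04 in place of 0.22. The value of 0.22 was itself not called (SE 0.20, edgeR adjusted p = 0.642). All 9 markers were higher in female cKO mice, with a median log2 fold change of 0.42 and no call. The part of oligodendrocyte RNA in the female Slc12a2 value was not tested.

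Slc12a5 was lower where the oligodendrocyte score was higher, with r = -0.729 (adjusted permutation p = 0.00308) and rho = -0.721 (adjusted permutation p = 0.00612). The value of r was -0.711 without the 2 farthest libraries, -0.794 in males and -0.535 in females. Male cKO replicate 13, the lowest of its group for Slc12a5, had the highest oligodendrocyte sum of the male libraries, 8670 CPM. For Clcn3 r was -0.668 (adjusted permutation p = 0.0149) while rho was -0.553 (adjusted permutation p = 0.0746), and for Clcn7 r was -0.527 (adjusted permutation p = 0.0393) while rho was -0.432 (adjusted permutation p = 0.145). For Clcn2 r was 0.149 (adjusted permutation p = 0.598) and rho 0.342 (adjusted permutation p = 0.185). Clcn4, Clcn5 and Clcn6 gave r of -0.33, -0.247 and -0.0389, with adjusted permutation p of 0.207, 0.458 and 0.876. CPM are shares of a library total, and the part of that constraint in these relations was not tested.

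**Figure D4:**
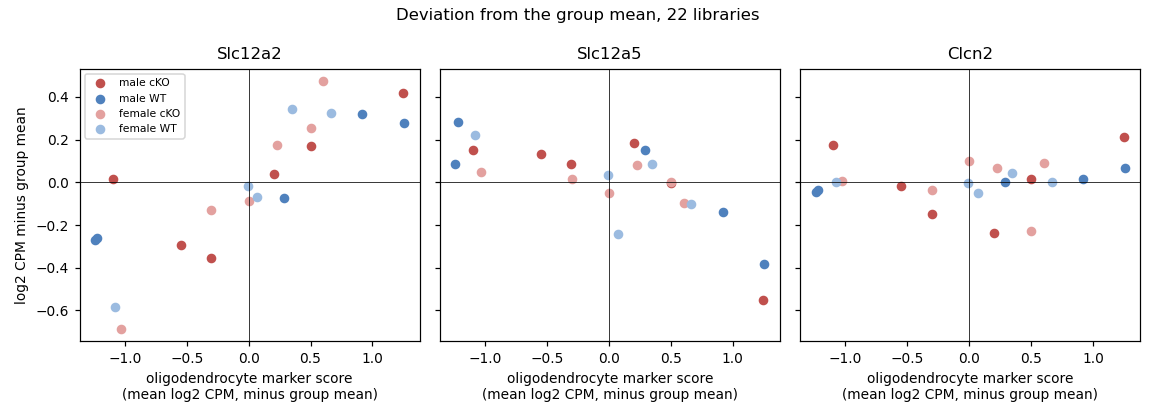
Log2 CPM of Slc12a2, Slc12a5 and Clcn2 (vertical) against the mean log2 CPM of 9 oligodendrocyte markers (horizontal), both as the difference from the group mean. Each point is 1 of 22 libraries, coloured by group. Slc12a2 rises with the score (r = 0.833), Slc12a5 falls (r = -0.729) and Clcn2 shows no such slope (r = 0.149).

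Across libraries, again with the group means taken out, the members most alike were Clcn3 and Slc12a5, with r = 0.911 over 22 libraries. Slc12a5 and Slc12a2 gave r = -0.555, and Clcn2 gave between -0.487 with Clcn6 and 0.376 with Clcn7. These values are a description, since all members share the same libraries and their cell makeup. Among 12122 genes, the most like Slc12a2 were Erbin (r = 0.974), Itgb4 (0.966), Marchf8 (0.955), Rcbtb1 (0.954) and Elovl7 (0.954). The most like Slc12a5 were Bri3bp (r = 0.969), Map1a (0.963), Extl3 (0.957), Vps33a (0.952) and Rapgef2 (0.948), of which Map1a encodes a microtubule-associated protein of neurons. For Clcn2 they were Zbtb8a (r = 0.845), the splicing factor gene Srsf6 (0.799), Resf1 (0.779), Pan2 (0.776) and Mex3a (0.774). The deviations of Clcn2 from its group means were smaller (SD 0.107 in log2 CPM) than those of Slc12a5 (0.196) and Slc12a2 (0.319).

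Around the 8 genes stands a wider chloride pathway, taken from lists of 73 further genes, of which 68 were in the tables and 63 could be tested. None of the 63 was called in males by edgeR or DESeq2, where 0.584% of all genes were called by edgeR, and 5 had an unadjusted edgeR p under 0.05. In females 1 was called by both tools, where 3.37% of all genes were called by edgeR, and 8 had an unadjusted edgeR p under 0.05. The median log2 fold change over the 63 genes was 0.005 in males and -0.02 in females, against 0.01 over all genes in both.

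The called gene was Neto2, which encodes a membrane protein that binds kainate receptors and also KCC2. Female cKO libraries had 34.04, 39.76 and 48.38 CPM as lowest, median and highest, against 73.19, 67.84, 63.89, 67.4 and 59.9 CPM in female WT libraries, with no overlap. Male cKO libraries had 27.81, 44.08 and 70.23 CPM, against 57.95, 89.83, 67.53, 58.11 and 70.51 CPM in male WT libraries, and here the groups overlapped through male cKO replicate 8. Neto2 fell by 0.72 on the log2 scale in females (SE 0.09, edgeR adjusted p = 0.00117), and its male value was -0.58 (SE 0.19, edgeR adjusted p = 0.302). The difference between the sexes, -0.14 (SE 0.23, edgeR adjusted p = 1), was not called. The female call held under all 16 alternatives tried, and in males Neto2 was called under none of them.

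The other 8 members of the list of regulators, the WNK kinases and their partners that phosphorylate KCC2 and NKCC1, gave no call by edgeR or DESeq2. Among the partners of ClC proteins, 5 tested genes had no call. Ostm1, the beta subunit of ClC-7, stood at 0.002 in males and -0.11 in females (SE 0.07, edgeR adjusted p = 0.497), and Mlc1, an astrocyte protein in a complex with the ClC-2 subunit GlialCAM, at 0.11 and 0.15. Clcn1, the ClC channel of skeletal muscle, stood at 0.07 in males and -0.29 in females.

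Among 5 other tested Slc12 genes, Slc12a8 was 0.92 in females (SE 0.40, edgeR adjusted p = 0.277) and -0.05 in males, and Slc12a7, which encodes KCC4, was 0.28 in both. Of 13 other chloride channel genes, 12 were lower in males and 10 lower in females, with medians of -0.13 and -0.07 and no call. The share of all genes that were lower was not counted. Ano2, a calcium-activated chloride channel, had 0.92 in females with an SE of 0.50, and Lrrc8b, a subunit of the volume-regulated channel, -0.16.

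The 10 tested anion and bicarbonate exchangers included Slc26a11 at -0.53 in males and -0.29 in females, and Slc4a2, the anion exchanger AE2, at 0.11 and 0.33, without a call. All 3 tested glycine receptor genes were lower in females, where Glra3 stood at -0.49 and Glra2 at -0.32, and Glra2 and Glra3 were also lower in males, at -0.38 and -0.46, again without a call. The 17 genes of the vacuolar proton pump, which works beside the exchangers in acidifying vesicles, had a median of 0.10 in males with 15 higher, and 0.004 in females with 10 higher. The share of all genes that were higher was not counted. Between female and male WT mice all 17 pump genes were higher in females, with a median of 0.14 and no call. Atp6v1c1 had the smallest female p of them, at 0.15 (SE 0.08, edgeR adjusted p = 0.432), followed by Atp6v0a2 at 0.08.

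Cohesin is known to shape contacts between stretches of a chromosome. Up to 5 of the nearest tested protein-coding genes on each side of every member were also read (10 in all, and 9 for Clcn5), in RefSeq order, a comparison added after the member values were seen. Of 10 neighbours of Clcn2, 2 were called in females and none in males, against 3.37% and 0.584% of all genes. Both called neighbours were lower in cKO mice, as were 443 of the 543 genes called in females. The median log2 fold change of the 10 was -0.22 in males and -0.35 in females, where the medians of all genes were 0.01 and 0.01. For the other 7 members the medians of the neighbours lay between -0.06 and 0.12 in males and between -0.15 and 0.13 in females, with 1 called neighbour each in females for Clcn3, Slc12a2 and Slc12a5 and none in males. Those called neighbours were lower in female cKO mice too, namely Galntl6 beside Clcn3 (-0.56), Chsy3 beside Slc12a2 (-0.94) and Cdh22 beside Slc12a5 (-0.94). No test of the neighbour medians was made.

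The called neighbours of Clcn2 were Thpo, the gene of the platelet growth factor thrombopoietin, and Chrd, the gene of chordin, a secreted inhibitor of bone morphogenetic proteins. Thpo was rare, with 3.97 ± 0.889 CPM in female cKO and 7.53 ± 1.73 CPM in female WT libraries, and 5.29 ± 2.4 CPM in male cKO and 9.42 ± 2.07 CPM in male WT libraries (SD). Its ranges of 2.75 to 5.29 CPM in female cKO and 5.46 to 8.88 CPM in female WT libraries did not overlap. Its log2 fold change was -0.92 in females (SE 0.19, edgeR adjusted p = 0.0162) and -0.83 in males (SE 0.28, edgeR unadjusted p = 0.0109, adjusted p = 0.302). Without female WT replicate 18 or female WT replicate 19 the adjusted p of Thpo was 0.0542 or 0.054.

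Chrd had 22.1 ± 6.4 CPM in female cKO and 41.4 ± 8.36 CPM in female WT libraries, and 27.1 ± 9.11 CPM in male cKO and 46.5 ± 7.51 CPM in male WT libraries (SD). The ranges overlapped slightly in females, with a highest female cKO library of 32.6 CPM and a lowest female WT library of 31.4 CPM. Its log2 fold change was -0.90 in females (SE 0.19, edgeR adjusted p = 0.0167) and -0.78 in males (SE 0.21, edgeR unadjusted p = 0.00339, adjusted p = 0.182). Without female WT replicate 19 the female adjusted p was 0.0566. DESeq2 called Chrd in males as well, with an adjusted p of 0.0339. Thpo and Chrd overlap on opposite strands, and whether reads were counted by strand is not given in the sources used here, so their counts cannot be told apart in full.

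Next to Clcn2 itself, Fam131a stood at -0.39 in females and -0.22 in males, and Polr2h, which encodes a subunit shared by the RNA polymerases, at -0.39 and -0.23, with no call. Fam131a overlaps the end of Clcn2 on the other strand, and in the GENCODE M21 annotation Polr2h overlaps its start, so some reads of these genes may have been given to the wrong gene. Of the other neighbours, Camk2n2 stood at -0.30 in females and -0.37 in males, Ece2 at -0.02 and -0.46, and Ephb3 at -0.53 and -0.18, with no call. Psmd2, Eif4g1 and Vps8 lay between -0.04 and 0.11 in both sexes.

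**Figure D5:**
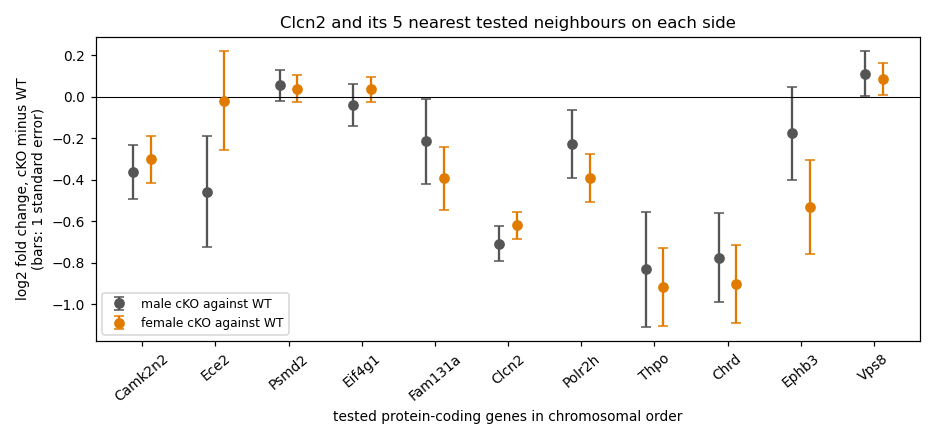
Log2 fold change, cKO minus WT, of Clcn2 and its 5 nearest tested protein-coding genes on each side, in chromosomal order, for males (grey) and females (orange) with bars of 1 standard error either side. Clcn2, Thpo and Chrd lie lowest, at -0.62 to -0.92, and Psmd2, Eif4g1 and Vps8 lie near 0.

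Reads shared between members could blur these values only where sequences match. Between the longest transcripts of each pair of members, 28 pairs in all, the longest identical run was 26 bases, between Clcn3 and Clcn4, followed by 23 bases between Clcn3 and Clcn5.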

How the data were processed

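Bulk RNA was sequenced in 22 libraries, and the authors deposited whole-number counts of reads per gene in 1 table per sex. Per the submitters' processing notes the tools were cutadapt, STAR, HTSeq and DESeq2 with build GRCm39, in an order and versions not given in the sources used here. The deposited log2 fold changes, p-values and adjusted p-values of the authors are quoted only where named, while the authors' normalized counts (22 columns) were left unused. Each table holds 20565 genes, and 22 genes without a name kept their ID. A column numbered 20 was used as a female cKO library by its group name.

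Low counts were filtered with filterByExpr of edgeR 4.0.16 under R 4.3.3, at a minimum count of 10 and a minimum total of 15. TMM factors were applied, and each sex was tested by quasi-likelihood F tests, with Benjamini-Hochberg adjustment over all genes. The differences between sexes came from 1 fit of all libraries. The SE was taken as the absolute log2 fold change divided by the root of F. The fit was also run on simulated data, but the recovery found there is not given, so it lends no weight to a missing call. Correlations used log2 CPM (prior count 1) minus the group mean (Python 3.11.15, scipy 1.17.1). Exon lengths are unions of GENCODE M21 exons (GRCm38), used for lengths only. Sequences and gene order are RefSeq GRCm38.p6, and all 8 members but Slc12a2 had a promoter.

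Members and lists were chosen with earlier results of these data known. Named genes were the members, Smc3, from each pathway list the genes past the threshold in either sex or else the 2 with the smallest female p, and for Clcn2, Slc12a2 and Slc12a5 the 5 genes of highest r with a mean count of at least 50. Alternatives were DESeq2 (1.42.0), relative log expression factors, no filter, each library left out, 1 fit of all groups and an oligodendrocyte covariate. A marker of the oligodendrocyte list is not reported here and was left out of its sum and score, a change made after the data were seen. A chi-square comparison of 50 replicate pairs gave at least 5.81 for each degree of freedom, so no pair agreed within sampling noise. Labels do not name batches. Intervals cover the spread between these libraries only.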

Additional observations from a re-analysis of the deposited data

Results flagged for a closer look

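Of 32 combinations of a member and a group, 3 had a library whose gap to its nearest neighbour was large for the range of its group, and chance gives about 1 in 20 groups. Clcn7 was highest in male cKO replicate 8 at 70.88 CPM, with the next male cKO library at 61.06 CPM and a gap of 0.678 of the range. Clcn7 was also highest in female WT replicate 19 at 59.56 CPM, with the next female WT library at 56.42 CPM and a gap of 0.851 of a narrow range. Slc12a5 was lowest in male cKO replicate 13 at 364.6 CPM, with the next male cKO library at 532.9 CPM and a gap of 0.697 of the range. That library also had the highest oligodendrocyte marker sum among males, 8670 CPM, and its part in the Slc12a5 value was not tested.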

How the results depend on the processing

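Clcn2 stayed past the threshold in all 16 alternatives in each sex, with log2 fold changes between -0.75 and -0.67 in males and between -0.65 and -0.59 in females, and a highest adjusted p of 0.0208 and 0.001. Members past the threshold numbered 1 in each sex and 0 in the 3 comparisons involving both sexes under every alternative. Counts over all genes moved more, for causes that were not tested. In males 94 genes were called, against 328 with DESeq2, 265 with the oligodendrocyte covariate, 276 in 1 fit of all groups, and 18 (without male cKO replicate 12) to 201 (without male cKO replicate 8) with each library left out. In females 543 were called, against 899 with DESeq2, 294 in 1 fit and 324 (without female WT replicate 19) to 681 (without female WT replicate 26) with each library left out. Between female and male WT mice 7 were called, against 63 with DESeq2 and 6 to 15 with each library left out. Between female and male cKO mice 7 were called, against 44 with DESeq2 and 7 to 24 with each library left out. The genotype by sex count was 0 throughout, 0 to 0 with each library left out. Outside the members, Thpo was 0.0609 in adjusted p for females in 1 fit, and was called in males with the oligodendrocyte covariate, as was Chrd, with adjusted p of 0.0299 and 0.0418. No paired analysis was possible because the groups share no replicate numbers.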
